A study of Homo sapiens with 39 samples.

Results

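The libraries described here are the 3 that came from HepaRG™ cells given aflatoxin B1 (AFB1), out of the 39 AmpliSeq libraries of a study of DNA damage-inducing (DDI) and non-DDI chemicals. They were found by their titles. HepaRG™ is an established human hepatic line that is differentiated in culture into cells like hepatocytes and cells like those of bile ducts. The cultures received 0.25, 1 or 2.5 µM AFB1 in DMSO, with medium and compound renewed daily for 3 exposures, and RNA was taken 7 h after the third exposure, at 55 h in all. The matched control received DMSO alone on the same schedule and also served colchicine (COL). Another 3 DMSO controls belonged to the sets of cisplatin (CISP), 2-nitrofluorene (2NF) and etoposide (ETP), and gave the spread between untreated libraries. RNA of 3 cultures was pooled in each library, so each concentration was 1 library and the spread between cultures was not measured. Comparisons between single libraries therefore carry no replicate check.

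AmpliSeq counts the reads of a single short amplicon chosen for each gene. The 7 libraries held between 9008520 and 14894463 counts on 20802 targets, and between 60.2% and 63.0% of the targets had at least 10 counts. Levels are given as RPM, counts scaled to a common library total, and can be compared between libraries but not between genes. Log2 ratios compare log2(RPM + 1) of an AFB1 library with its matched control, and the added 1 makes them too small where reads are few. The dose trend is the slope of edgeR's quasi-likelihood fit over the 7 libraries, in log2 units per dose level (0 for the 4 controls, then 1, 2 and 3), for 12870 genes with a mean count of at least 10. A gene was called at a Benjamini-Hochberg adjusted p under 0.05 over all genes tested. Because the DMSO controls differed from each other, the slope was also fitted within the matched sets, over all 39 libraries with the set as a block. Each set had 1 baseline and each chemical 1 slope. AFB1 and COL shared a set, so the COL libraries also entered the AFB1 baseline. The spread in this fit came from the libraries of all 10 chemicals and their controls. These libraries include sets given in water or in medium, each with a control in its own vehicle.

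AFB1 is a mould toxin that is not reactive itself. In hepatocytes cytochromes P450, above all CYP3A4 and CYP1A2, oxidise it to an epoxide that binds guanine in DNA, while glutathione S-transferases, epoxide hydrolase and aldo-keto reductases remove reactive products. Bulky adducts are cut out by nucleotide excision repair, and damage that persists stabilises p53, which switches on genes of cell cycle arrest, repair and cell death. Cells that return to the cycle use E2F factors for the genes of DNA synthesis and the CHR element with CCAAT boxes for the genes of mitosis.

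The promoters of 4 genes that stand for the groups described below are given first, from RefSeq (GRCh38.p14), 250 bases before to 50 after the first listed start and on the strand of the gene. TOP2A, a topoisomerase of dividing cells, lies at chr17:40417847-40418146 (minus strand). RRM2, a subunit of ribonucleotide reductase, lies at chr2:10122489-10122788 (plus strand). PCNA, the sliding clamp of DNA polymerase, lies at chr20:5126573-5126872 (minus strand), and CYP3A4 at chr7:99784135-99784434 (minus strand). Capitals mark CCAAT, the CHR letters TTTGAA, the E2F letters GCGGGAA and the nuclear receptor half-sites AGGTCA and AGTTCA, each searched on both strands.
TOP2A: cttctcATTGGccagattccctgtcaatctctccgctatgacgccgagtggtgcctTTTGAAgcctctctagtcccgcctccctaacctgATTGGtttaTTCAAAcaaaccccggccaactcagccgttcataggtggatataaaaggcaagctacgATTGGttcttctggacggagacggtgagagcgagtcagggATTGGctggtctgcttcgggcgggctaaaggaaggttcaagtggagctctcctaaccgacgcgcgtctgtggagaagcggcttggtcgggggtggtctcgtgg
RRM2: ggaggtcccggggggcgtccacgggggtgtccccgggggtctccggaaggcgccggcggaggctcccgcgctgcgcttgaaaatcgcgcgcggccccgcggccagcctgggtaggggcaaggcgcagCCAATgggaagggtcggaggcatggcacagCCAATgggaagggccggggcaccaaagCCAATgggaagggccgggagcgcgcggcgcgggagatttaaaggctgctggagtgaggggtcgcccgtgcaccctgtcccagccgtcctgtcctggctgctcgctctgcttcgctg
PCNA: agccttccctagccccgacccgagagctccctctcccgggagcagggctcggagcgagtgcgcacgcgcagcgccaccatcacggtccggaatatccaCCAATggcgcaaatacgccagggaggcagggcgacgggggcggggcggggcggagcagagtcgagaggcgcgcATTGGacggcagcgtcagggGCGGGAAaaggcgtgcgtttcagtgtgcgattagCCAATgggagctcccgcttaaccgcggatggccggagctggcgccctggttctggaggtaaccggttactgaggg
CYP3A4: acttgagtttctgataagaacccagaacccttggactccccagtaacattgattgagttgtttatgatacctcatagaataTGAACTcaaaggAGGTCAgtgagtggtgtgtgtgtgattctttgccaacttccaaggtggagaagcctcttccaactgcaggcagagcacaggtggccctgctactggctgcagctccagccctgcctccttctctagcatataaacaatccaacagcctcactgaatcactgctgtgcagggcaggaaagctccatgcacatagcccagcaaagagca
The TOP2A promoter held 4 CCAAT letters and 2 CHR letters, that of RRM2 held 3 CCAAT letters, and that of PCNA held 3 CCAAT letters and 1 E2F match. CYP3A4 held none of these but held 2 nuclear receptor half-sites facing away from each other, the arrangement known to bind the receptors PXR and CAR. Among the 27305 promoters of the table, 35.7% held CCAAT, 15.4% the CHR letters, 6.56% the E2F letters and 22.8% a half-site. Of the 13 mitosis genes tested, 11 had a promoter in the table, of which 11 held CCAAT, 7 the CHR letters, 4 a half-site and 0 the E2F letters. Of the 6 AFB1 activation genes tested, 5 had a promoter, of which 3 held a half-site, 3 CCAAT and 0 the CHR letters. Of the 16 p53 targets of arrest, 13 had a promoter, of which 8 held CCAAT, 2 a half-site and 0 the CHR letters. Half-sites were also in 6 of 13 promoters of the unfolded protein and integrated stress response and 2 of 12 of AFB1 detoxification. They were in 2 of 11 of the NF-kappaB list and 0 of 17 of the excision repair list. CCAAT was in 9, 1, 3 and 7 of the promoters of these lists, in the same order. The table held promoters for 73.2% of the genes tested and 15 of the 19 replication genes, under the 80% set for a share, so no share is given for those. A match in letters is a description and not evidence of binding.

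With rising AFB1 concentration, 18 of 19 genes of DNA synthesis, 12 of 13 of mitosis, 10 of 16 p53 targets of arrest and 11 of 16 of the death pathway rose. Of the enzymes that activate AFB1 5 of 6 fell, as did 14 of 27 other phase I and II enzymes. In the list of hepatocyte secreted proteins 15 of 22 genes fell. The lists were chosen with earlier results of these data known, so these counts describe the lists and are not a test. The dose trend called 721 genes higher (5.60% of the genes tested) and 574 lower (4.46%), or 10.1% in either direction. The genes called higher had median log2 ratios of 0.17, 0.45 and 1.00 at the rising concentrations. Those called lower had medians of -0.24, -0.39 and -0.90. The trend rested on the 2.5 µM library, without which 31 genes were called higher and 21 lower. Within the matched sets, 336 genes were called higher and 457 lower, and 610 of the 1295 calls were made in both fits. None of the 1295 genes turned its sign in any of the fits compared.

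Single concentrations were described by genes that were past 2-fold from the matched control and outside the range of the 4 DMSO controls. At 0.25 µM these were 10 genes higher (0.0777% of those tested) and 17 lower (0.132%), or 0.210% in all. The 1 µM library had 83 higher (0.645%) and 67 lower (0.521%), or 1.17%. The 2.5 µM library had 423 higher (3.29%) and 393 lower (3.05%), or 6.34%. Against these shares, 6 of the 6 AFB1 activation genes and 16 of the 22 genes of the secreted protein list were lower at 2.5 µM. Of the mitosis genes 12 of 13 were higher, and of the replication genes 15 of 19. As the lists were chosen with earlier results of these data known, setting them beside the shares is not a test. By fold alone, the 0.25 µM library differed from the matched control in 15 genes upward and 23 downward, and the 1 µM library in 84 and 79. The other DMSO controls differed from it in 28 to 64 genes upward and 91 to 198 downward. The 0.25 µM library thus had fewer such genes than any other DMSO control, and the 1 µM library more upward but fewer downward. The 2.5 µM library, with 429 upward and 400 downward, had more than any of them in both directions. The matched control held 26 genes that were over 2-fold above every other DMSO control, and 3 below. The ETP set's control stood apart in more genes, with 0 above and 42 below, while the CISP and 2NF controls had 2 and 5 above and 0 and 6 below. Among the genes of the matched control, S100A2, a calcium-binding protein of epithelial cells, had 235 RPM there against 61.5 to 89.6 in the other controls. FOSB, an immediate-early factor, had 35.1 RPM against 4.29 to 5.22. For such genes a difference from the other 3 controls cannot be told apart from a difference between sets.

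**Figure D1:**
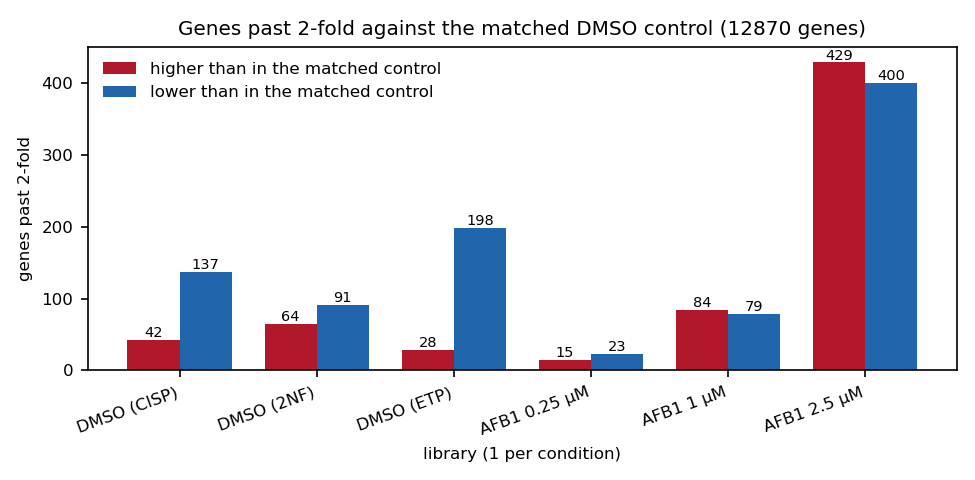
Number of the 12870 genes tested (vertical axis) that were past 2-fold above (red) or below (blue) the matched DMSO control, for each other DMSO control and each AFB1 library (1 bar pair per library). The 2.5 µM library had 429 genes above and 400 below, more than any control, while the 0.25 µM library had fewer (15 and 23) than each of the 3 other controls.

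The enzymes that activate AFB1 fell, and 3 of them (CYP3A4, CYP2B6 and CYP2A6) were among the 12 named genes with the largest fall. Of the 7 listed, 6 passed the filter and 5 were called lower (CYP3A4, CYP3A5, CYP1A2, CYP2A6 and CYP2B6). Their median log2 ratios at the rising concentrations were -0.36, -1.50 and -3.43, against -0.01, 0.04 and 0.09 over all genes tested. The medians of the other 3 DMSO controls lay between 0.10 and 0.43. All 6 were called lower within the matched sets, and without the 2.5 µM library 3 were.

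CYP3A4, the main drug-metabolising P450 of adult liver, had 113 RPM in the matched control, 165, 279 and 138 RPM in the DMSO controls of the CISP, 2NF and ETP sets, and 99.3, 28.4 and 2.52 RPM at 0.25, 1 and 2.5 µM AFB1. All 3 AFB1 libraries lay below the 4 controls, the lowest of which was the matched one, though at 0.25 µM only just. At 2.5 µM 27 reads remained against 1581 in the matched control, a level 44.8-fold lower (95% interval 30.7 to 68.3, counting error only). The slope was -1.60 ± 0.21 (SE, adjusted p = 0.000704), and -1.21 without the 2.5 µM library (adjusted p = 0.0354). CYP1A2, which also forms the epoxide and hydroxylates AFB1 to a less toxic product, had 19.2 RPM in the matched control and 28.9, 23.8 and 38.6 RPM in the other controls. It had 22.5, 7.38 and 1.5 RPM at the rising concentrations. The 0.25 µM library was within the controls and the other two below them, with a slope of -1.12 ± 0.17 (adjusted p = 0.00151). Its level at 2.5 µM was 12.8-fold below the matched control (7.75 to 22.8).

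CYP2A6 and CYP2B6, 2 further P450s with some activity on AFB1, followed the same order. CYP2A6 had 22.9 RPM in the matched control, 21.2 to 34.3 RPM in the others, and 11.3, 6.18 and 0.655 RPM with AFB1 (slope -1.32 ± 0.14). CYP2B6 had 59.9 RPM in the matched control, 62.0 to 105 RPM in the others, and 49.3, 17.5 and 2.34 RPM (slope -1.30 ± 0.17). Both were below every control at each concentration. CYP3A5 fell from 327 RPM in the matched control and 302 to 362 in the others to 242, 242 and 127 RPM (slope -0.41 ± 0.06). CYP3A7, the foetal form, had 11.7 RPM in the matched control but 4.62 to 5.24 RPM in the others, and 7.33, 5.57 and 1.68 RPM with AFB1. It did not pass the test over the 7 libraries (adjusted p = 0.207) and did within the matched sets (slope -0.79, adjusted p = 0.00148). CYP3A genes have near-identical copies, so how their reads were divided among them is uncertain.

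**Figure D2:**
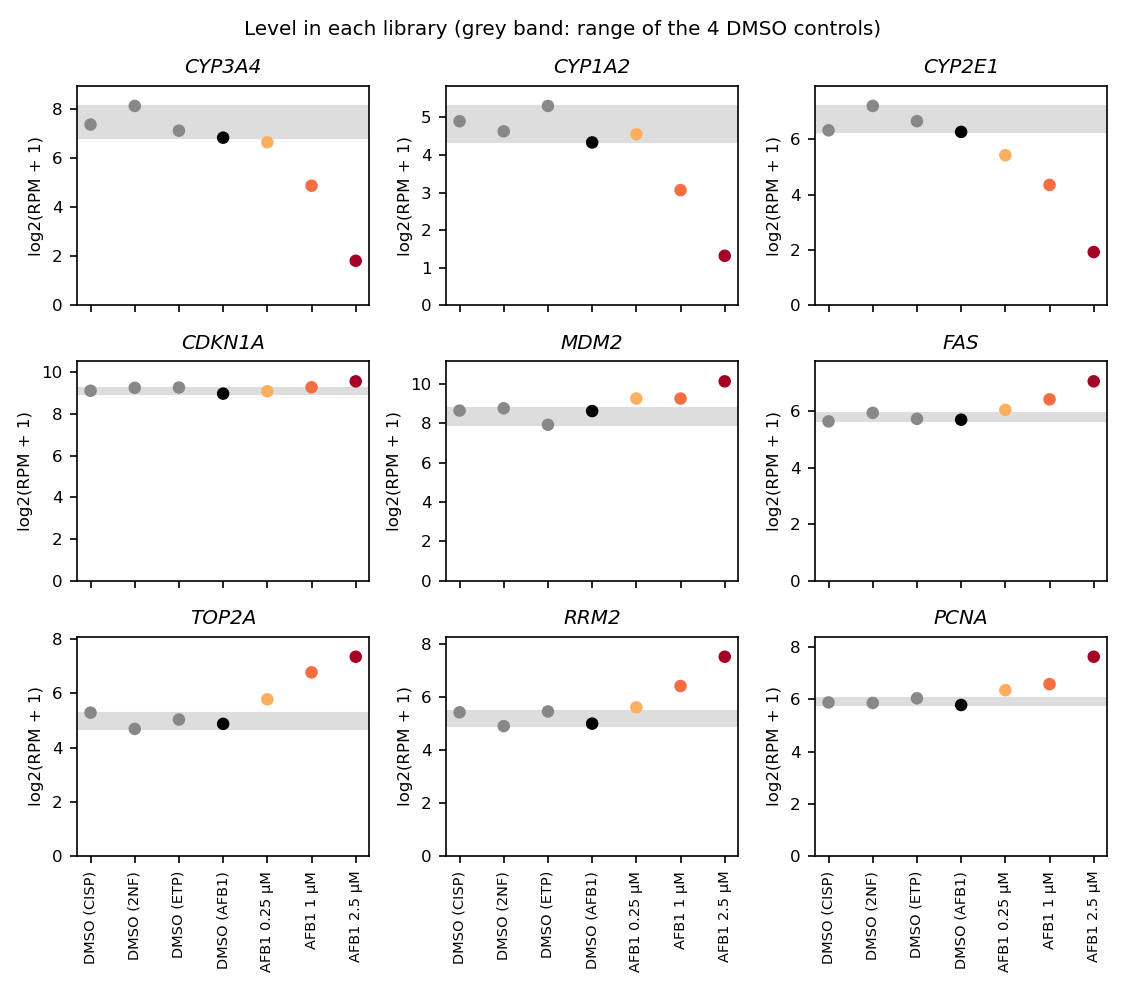
Level of 9 genes in each of the 7 libraries, as log2(RPM + 1), 1 point per library, with the range of the 4 DMSO controls as a grey band. At 2.5 µM the 3 P450 genes of the top row lie below the band and the other 6 above it, with CDKN1A the closest to it (760 RPM against at most 619).

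Fewer changes were called in the list for AFB1 detoxification. It takes in glutathione transferases of several families, and an action on AFB1 is not established for each of them. Of 15 tested, 13 did not pass, 2 were called lower and 0 higher, against 4.46% lower over all genes tested. The list's median log2 ratio was -0.04, -0.19 and -0.31 at the rising concentrations. AKR7A3, an aldo-keto reductase that reduces AFB1 dialdehyde, had 188 RPM in the matched control, 156, 168 and 188 RPM in the others, and 161, 139 and 68.8 RPM with AFB1. Only the 1 and 2.5 µM libraries were below the controls (slope -0.37 ± 0.07, adjusted p = 0.00864). GSTM4, a mu-class glutathione transferase, went from 83.6 RPM in the matched control to 55.0 RPM at 2.5 µM (slope -0.21 ± 0.05), and was not called within the matched sets (adjusted p = 0.111). GSTA1, the abundant alpha-class transferase of hepatocytes, had 1365 RPM at 2.5 µM against 1744 to 2348 RPM in the 4 controls (adjusted p = 0.0955). EPHX1, microsomal epoxide hydrolase, had 1080 RPM against 1248 to 1544 (adjusted p = 0.0615). Fitted to the matched control alone, 5 of the 15 were called lower. GSTM1, which is at or near the detection limit here, had 0.604 to 1.22 RPM in all 7 libraries. Reads of the GST families can be shared between near-identical copies.

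Of 27 other phase I and II enzymes, 14 were called lower (15 within the sets) and 0 higher, with median log2 ratios of -0.13, -0.53 and -1.24. The other DMSO controls had medians of -0.53 to -0.02 on the same scale, and that of the ETP set's control equalled the 1 µM median to 2 decimals. CYP2E1, which oxidises ethanol and small solvents, had 76.3 RPM in the matched control, 79.4, 147 and 100 RPM in the others, and 42.1, 19.5 and 2.81 RPM with AFB1. It was below every control at each concentration (slope -1.45 ± 0.14, adjusted p = 0.00012). CYP7A1, the rate-limiting enzyme of bile acid synthesis, had 23.2 RPM in the matched control but 5.36, 10.8 and 3.93 RPM in the others, and 7.44, 2.62 and 0.187 RPM with AFB1. Its 0.25 µM value was inside the range of the controls. At 2.5 µM it rested on 2 reads, a ratio to the matched control of 0.00806 with a 95% counting interval of 0.000972 to 0.0294.

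Conjugating enzymes and P450 reductase were also among those called. SULT2A1, a sulfotransferase of steroids and bile acids, had 190, 128 and 46.4 RPM with AFB1 against 220 to 353 RPM in the controls (slope -0.72 ± 0.10). ADH1B, an alcohol dehydrogenase, had 511, 384 and 113 RPM against 454 to 801 (slope -0.62 ± 0.14), and only the 1 and 2.5 µM libraries were below the controls. POR, which passes electrons to every microsomal P450, had 163, 136 and 97.0 RPM against 189 to 288 (slope -0.47 ± 0.06). UGT1A1, the bilirubin transferase, was called lower (adjusted p = 0.0121), but its matched control had 320 RPM against 570 to 747 in the others. With 352, 293 and 238 RPM under AFB1, its within-set slope was -0.24 with an adjusted p of 0.0907. CES1, ALDH1A1 and CYP27A1, which are abundant in hepatocytes, had log2 ratios at 2.5 µM of -0.27, -0.36 and -0.42 and did not pass the test. UGT2B and CYP2C genes also have near-identical copies.

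Genes that define the hepatocyte fell as well, in part. Among 18 transcription factors and nuclear receptors, 6 were called lower (HNF4A, CEBPA, ONECUT1, PROX1, NR1I3 and PPARA) and 0 higher, with median log2 ratios of -0.12, -0.24 and -0.69. NR1I3, the receptor CAR that drives CYP2B6 and CYP3A4, had 6.30 RPM in the matched control, 3.96, 6.18 and 3.18 RPM in the others, and 4.11, 1.54 and 0.187 RPM with AFB1. The 2.5 µM value was 2 reads, a ratio of 0.0297 (0.00354 to 0.110), and its slope was -1.03 ± 0.21. HNF4A, the master regulator of hepatocyte genes, had 90.8 RPM in the matched control, 80.7, 113 and 94.0 RPM in the others, and 78.6, 66.5 and 40.4 RPM, each below the controls (slope -0.37 ± 0.06, adjusted p = 0.00247). In the fit within matched sets HNF4A had a slope of -0.42 and did not pass (adjusted p = 0.111), and 4 of the 6 calls remained. AHR, the receptor that drives CYP1A2, had 60.6, 44.4 and 51.2 RPM with AFB1 against 40.5 to 59.4 RPM in the controls and was not called.

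In the list of hepatocyte secreted proteins, 22 genes were tested, of which 15 were called lower (17 within the sets) and 0 higher. The median log2 ratios were -0.22, -0.64 and -1.39. The list also holds TAT, a cytosolic enzyme that is not secreted, which was called lower in both fits. TTR, the thyroxine and retinol carrier, had 4802 RPM in the matched control, 5059, 5488 and 5207 RPM in the others, and 3491, 2765 and 1140 RPM with AFB1. APOC3, an apolipoprotein of triglyceride-rich particles, had 679 RPM in the matched control, 629, 1065 and 733 RPM in the others, and 453, 239 and 77.7 RPM. Both were below every control at each concentration (adjusted p = 0.000183 and 0.000101), and both stayed called without the 2.5 µM library. ALB, the albumin of plasma, had 26125 RPM in the matched control, 33206, 21742 and 17792 RPM in the others, and 32243, 23363 and 19900 RPM, all inside the range of the controls (adjusted p = 0.612). SERPINA1 and C3 had log2 ratios of 0.16 and -0.07 at 2.5 µM and were not called. The list's summed level was 49169 to 62116 RPM in the controls and 58686, 44947 and 33054 RPM with AFB1.

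Of 15 hepatocyte transporters, 5 were called lower and 1 (SLCO1B3, at 1.05 to 3.46 RPM in all libraries) higher. The fit within matched sets had 7 lower and 0 higher. SLC22A7, an organic anion transporter, had 30.0 RPM in the matched control, 16.7, 36.2 and 15.7 RPM in the others, and 15.0, 9.27 and 0.935 RPM with AFB1, below every control (slope -1.06 ± 0.20, adjusted p = 0.00541). ABCB11, the bile salt export pump, had 4.87 RPM in the matched control and 0.990, 4.19 and 1.36 RPM in the others. It had 3.00, 1.61 and 0.187 RPM with AFB1, did not pass over the 7 libraries (adjusted p = 0.164) and passed within the sets (adjusted p = 0.000547).

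The culture holds more than 1 cell type, and in pooled RNA fewer hepatocyte-like cells cannot be told apart from less of these RNAs in each of them. All 7 libraries carried the hepatocyte markers ALB, APOA1, TTR, SERPINA1, FGB and HNF4A, and APOA2 at 1.12 to 11.9 RPM. Of the cholangiocyte markers, KRT7 had 0 counts in all 7 libraries, EPCAM, CFTR and PROM1 had at most 2, and CD24 had no target. Of the 5 tested, SOX9, a duct cell factor, was the 1 called (lower, adjusted p = 0.0264), and it did not pass within the sets (adjusted p = 0.518). The 5 summed to 1348 RPM in the matched control, 472 to 710 RPM in the other controls, and 1009, 1334 and 1375 RPM with AFB1, most of it KRT19, a keratin of bile duct cells. KRT19 had 1233 RPM in the matched control, 397, 626 and 455 RPM in the others, and 899, 1233 and 1296 RPM with AFB1, with a within-set slope of 0.03. The part of cell composition in the hepatocyte results was not tested. Among markers of other liver cells, COL1A2, PTPRC and VWF had 0 counts throughout, and ACTA2, a smooth muscle actin, was the 1 of 7 called (higher, 145 RPM at 2.5 µM against 72.7 to 82.1 RPM in the controls).

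Targets of p53 rose with AFB1. Of 16 targets of arrest and feedback, 10 were called higher and 0 lower, with median log2 ratios of 0.11, 0.42 and 0.90. Within the matched sets 4 were called (PPM1D, BTG2, SESN1 and ZMAT3), and against the matched control alone 12. MDM2, the ligase that degrades p53, had 390 RPM in the matched control, 397, 431 and 241 RPM in the others, and 607, 606 and 1112 RPM with AFB1. Each AFB1 library was above every control, the first 2 alike (slope 0.49 ± 0.08, adjusted p = 0.00192, and adjusted p = 0.139 within the sets). CDKN1A, which encodes the cycle inhibitor p21, had 505 RPM in the matched control, 555, 613 and 619 RPM in the others, and 546, 624 and 760 RPM. The 0.25 µM value was within the controls and those at 1 and 2.5 µM above them, the first only just, and the slope of 0.10 ± 0.04 did not pass (adjusted p = 0.175). PPM1D, a phosphatase that switches the p53 response off, had 23.6 RPM in the matched control, 21.4, 25.8 and 23.0 RPM in the others, and 23.9, 36.0 and 54.4 RPM, above the controls at 1 and 2.5 µM. GDF15, a secreted stress factor, was called (adjusted p = 0.017) but had 139 RPM in the matched control against 68.3 to 119 in the others, and did not pass within the sets (adjusted p = 0.434).

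Of 16 p53 targets of the death pathway, 11 were called higher and 0 lower, with median log2 ratios of 0.11, 0.43 and 0.90, and 9 were called within the sets. FAS, a death receptor, had 50.8 RPM in the matched control, 48.8, 60.3 and 51.9 RPM in the others, and 64.9, 84.4 and 132 RPM with AFB1, above every control at each concentration (slope 0.40 ± 0.04, adjusted p = 0.000237). PMAIP1, a BCL2 family protein also called NOXA, had 8.31 RPM in the matched control, 14.2, 9.43 and 13.8 RPM in the others, and 13.7, 19.3 and 36.1 RPM. TP53I3, a quinone oxidoreductase, had 75 RPM in the matched control, 84.6, 87.5 and 64.8 RPM in the others, and 93.8, 106 and 226 RPM. BAX, which opens the mitochondrial membrane, had 146, 178 and 237 RPM with AFB1 against 114 to 135 RPM. The list also holds genes that oppose death, so its counts do not measure a response towards death. BCL2L1, whose main product opposes death, was called as well (337 RPM at 2.5 µM against 136 to 202 RPM, adjusted p = 0.143 within the sets). So was TRIAP1, an inhibitor of apoptosis (160 RPM against 69.3 to 76.7 RPM, adjusted p = 0.00124 within the sets). TNFRSF10C, a decoy receptor, was not called.

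Of 20 genes of nucleotide excision repair and p53-driven bypass, 5 were called higher (XPC, DDB2, POLH, RRM2B and LIG1) and 0 lower. Within the sets 4 were called, RRM2B not passing (adjusted p = 0.0544). XPC and DDB2, which find damaged bases, are p53 targets, as are RRM2B, a ribonucleotide reductase subunit, and POLH, a polymerase that copies past lesions. DDB2 had 55.1 RPM in the matched control, 36.4, 48.2 and 41.1 RPM in the others, and 66.7, 84.0 and 130 RPM with AFB1, above every control (slope 0.48 ± 0.06, adjusted p = 0.000427). POLH had 38, 61.6 and 75.6 RPM against 27.4 to 37.6, and XPC 141, 178 and 259 RPM against 142 to 164. The other 15 genes, among them XPA, all 7 ERCC genes listed, both RAD23 genes and DDB1, did not pass the test. Their slopes ran from -0.16 (ERCC6) to 0.13 (RPA1), and the median log2 ratio of the whole list was 0.22 at 2.5 µM.

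Genes of DNA synthesis and mitosis rose, with larger medians than the p53 lists. Of 19 genes of DNA replication and E2F, 18 were called higher, with median log2 ratios of 0.39, 0.70 and 1.40, and CCNE1 did not pass (adjusted p = 0.0877). Within the matched sets 13 were called, against the matched control alone 17, and without the 2.5 µM library 2. RRM2 had 30.9 RPM in the matched control, 41.9, 28.9 and 42.9 RPM in the others, and 47.8, 84.3 and 183 RPM with AFB1. PCNA, which is also a p53 target, had 54.0 RPM in the matched control, 57.8, 57.1 and 64.8 RPM in the others, and 80.5, 94.6 and 197 RPM. Both rose past every control at each concentration (slopes 0.72 ± 0.06 and 0.51 ± 0.05). TYMS, thymidylate synthase, had 92.6 RPM in the matched control, 71.2, 83.6 and 76.6 RPM in the others, and 144, 180 and 335 RPM. The helicase genes MCM2 to MCM7 were called with slopes of 0.28 to 0.49, MCM5, MCM6 and MCM7 not within the sets. E2F7 and E2F8, repressors that damp the E2F wave, had slopes of 0.74 ± 0.10 and 0.98 ± 0.13, E2F8 from 0.530 to 1.26 RPM in the controls to 6.64 RPM at 2.5 µM. E2F8 had 7 to 12 counts in the controls and 12, 35 and 71 with AFB1. It reached the mean count of 10 over the 7 libraries only through the AFB1 libraries, so its call is not independent of the filter.

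Of 13 mitosis genes, 12 were called higher, with median log2 ratios of 0.76, 1.12 and 1.74, and CCNB2 did not pass (adjusted p = 0.285). Within the matched sets 5 were called (TOP2A, CDK1, AURKB, FOXM1 and CENPF), against the matched control alone 12, and without the 2.5 µM library 3. TOP2A had 28.4 RPM in the matched control, 38.1, 24.8 and 31.8 RPM in the others, and 53.9, 108 and 162 RPM with AFB1. CDK1, the kinase that starts mitosis, had 13.5 RPM in the matched control, 15.2, 10.7 and 16.7 RPM in the others, and 26.5, 41.8 and 71.8 RPM. Both were above every control at each concentration (slopes 0.81 ± 0.06 and 0.77 ± 0.06, adjusted p = 4.83e-05 and 5.32e-05). MKI67, the Ki-67 antigen, had 11.2 RPM in the matched control, 13.7, 6.81 and 9.15 RPM in the others, and 19.0, 22.8 and 39.6 RPM, with an adjusted p of 0.0546 within the sets. CCNB1, the cyclin partner of CDK1, PLK1, a mitotic kinase, and CDC20, an activator of the anaphase-promoting complex, had log2 ratios of 1.18, 1.36 and 1.36 at 2.5 µM and did not pass within the sets (adjusted p = 0.479, 0.669 and 0.752).

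**Figure D3:**
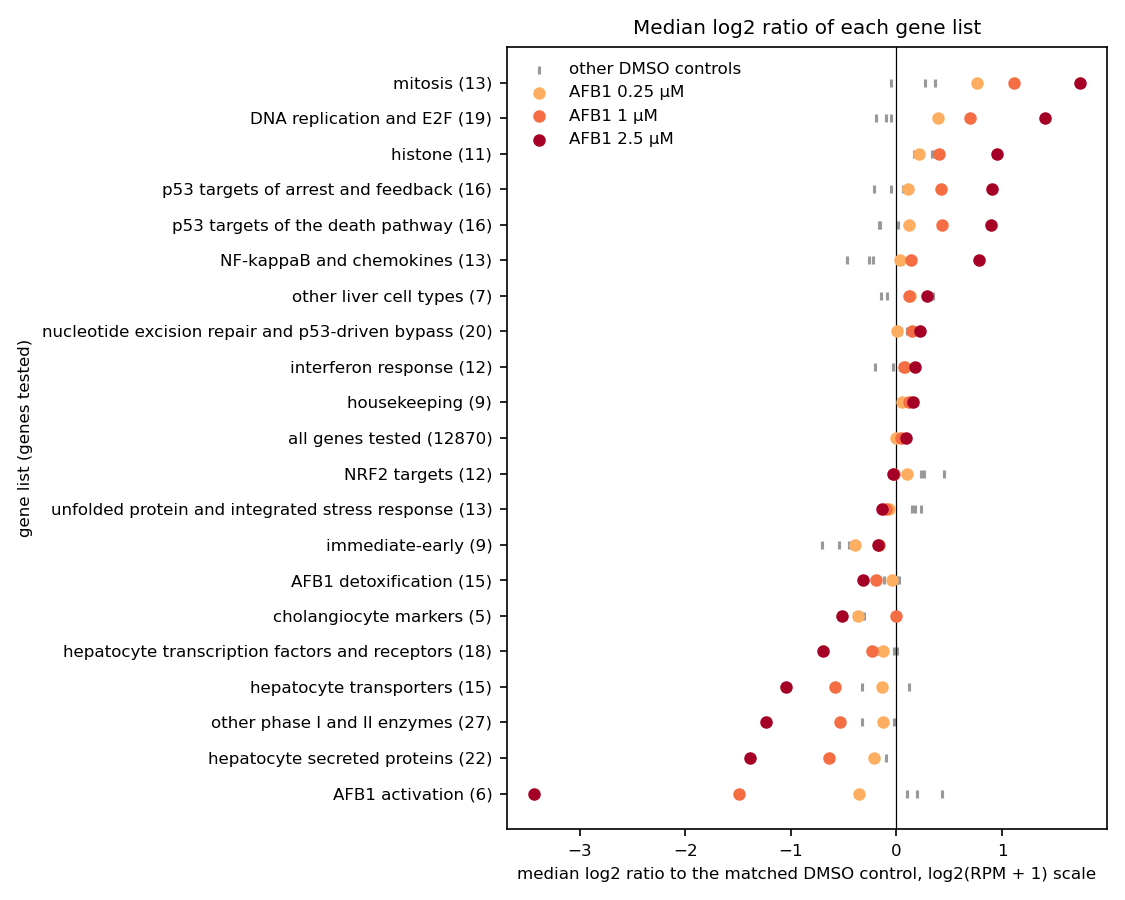
Median log2 ratio to the matched DMSO control (horizontal axis) of each gene list and of all genes tested, with the number of genes tested in parentheses, for the 3 AFB1 libraries (coloured points) and the 3 other DMSO controls (grey ticks). The AFB1 activation list reached -3.43 at 2.5 µM and the mitosis list 1.74, while all genes tested stood at 0.09.

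**Figure D4:**
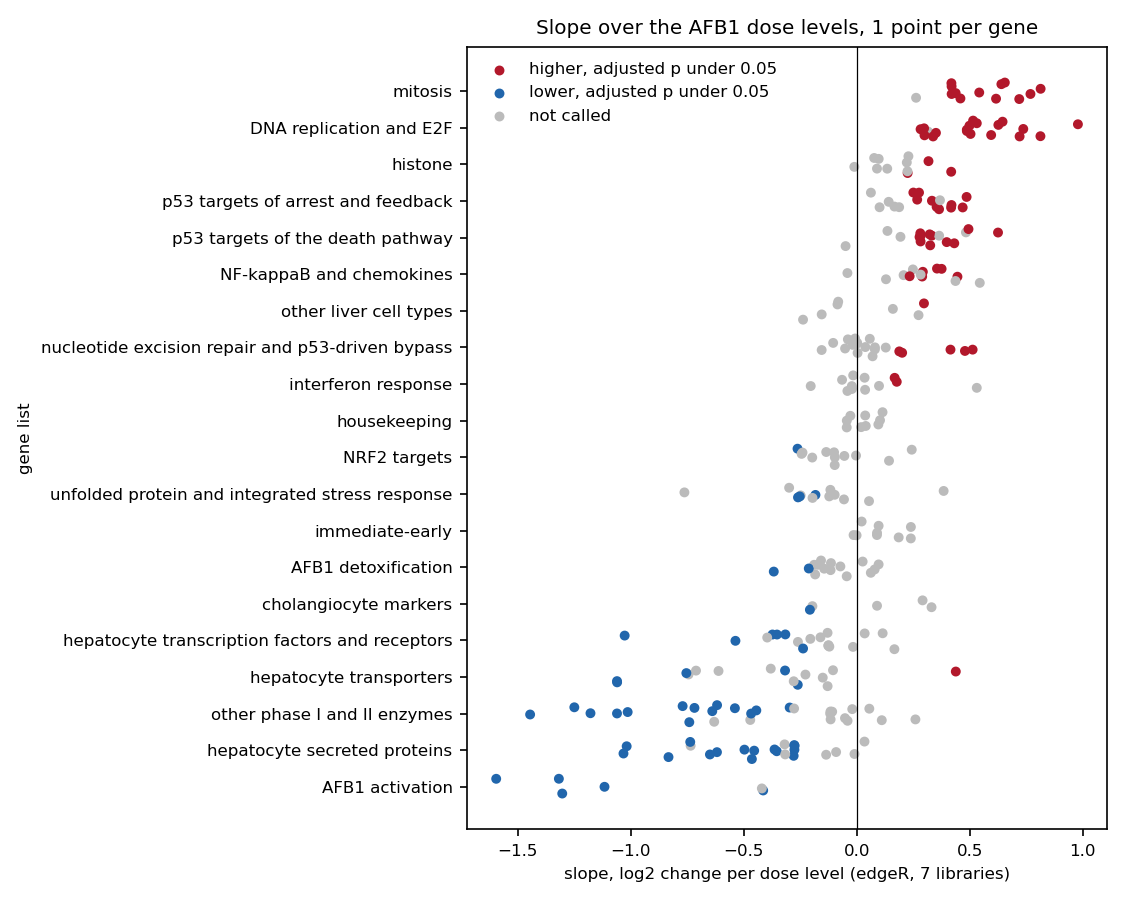
Slope over the AFB1 dose levels (horizontal axis, log2 change per level) of each gene tested, 1 point per gene, by list and spread vertically for legibility, coloured where the adjusted p was under 0.05. All 12 called mitosis genes and all 18 called replication genes lie to the right of 0, and the 5 called activation genes to the left, between -1.60 and -0.41.

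In the other stress programmes fewer genes were called. Of 11 histone genes, 3 were called higher (HIST1H1C, HIST1H2BD and HIST1H2BN), with HIST1H2BN, an H2B gene, going from 26.8 to 30.8 RPM in the controls to 33.1, 49.1 and 72.9 RPM. Of these 3, HIST1H1C, a linker histone, did not pass within the sets (adjusted p = 0.126), where 4 of the list were called. Histone genes have near-identical copies, and the other DMSO controls had list medians of 0.17 to 0.36. Of 12 NRF2 targets, which answer oxidative stress, 1 (FTL, a ferritin chain, lower) was called and did not pass within the sets (adjusted p = 0.113), HMOX1 and NQO1 having log2 ratios of 0.08 and 0.62 at 2.5 µM without passing. Of 13 genes of the unfolded protein and integrated stress response, XBP1, DNAJB9 and HERPUD1 were called lower and 0 higher, with XBP1, the factor that expands the endoplasmic reticulum, at 124 RPM at 2.5 µM against 191 to 275 RPM. XBP1 was the 1 of the 3 that passed within the sets.

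Of 13 NF-kappaB and chemokine genes, 6 were called higher (CXCL8, CCL2, CCL20, TNFAIP3, BIRC3 and RELB). CXCL8 (IL8 in the files), a neutrophil chemokine, had a matched control above the others, with 231 RPM against 135 to 142 RPM, and did not pass within the sets. There BIRC3, an inhibitor of apoptosis, was the 1 called, with 122 RPM in the matched control and 143, 174 and 262 RPM with AFB1. Of 12 interferon response genes, 2 were called higher, among them ISG15, a ubiquitin-like protein, with a log2 ratio of 0.78 at 2.5 µM, which was also called within the sets. None of 9 immediate-early genes was called by edgeR over the 7 libraries, and 3 were called higher when the matched control, where FOSB, FOS and JUNB stood highest, was left out. KLF4 was the 1 gene of the 9 with an unadjusted p under 0.05, and DESeq2 called 0. None of 9 housekeeping genes was called by edgeR or DESeq2 (0 each, PPIA being the 1 with an unadjusted p under 0.05), with a median log2 ratio of 0.16 at 2.5 µM.

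Among the 12 called genes of each direction with the largest log2 ratio at 2.5 µM and a mean count of at least 50, several belong to no list above. TMEM40, a membrane protein, had 1.72 RPM in the matched control, 1.73, 2.20 and 1.21 RPM in the others, and 2.77, 5.17 and 28.5 RPM with AFB1, the largest of these 12 (log2 ratio 3.44, slope 1.27 ± 0.12, adjusted p = 8.39e-05). TMEM40, with 16 to 24 counts in the controls, reached the mean count of 50 only through the AFB1 libraries, as did E2F7 with 28 to 41. The place of these genes among the 12 is therefore not independent of their rise. ASF1B, a histone chaperone of replication, CDCA5, which holds sister chromatids together, and CENPW and CKAP2L, of the centromere and the spindle, had log2 ratios of 2.48, 2.37, 2.21 and 2.22. AREG, a ligand of the EGF receptor, had 8.44, 11.0 and 33.9 RPM against 6.59 to 10.9 RPM in the controls, and RRAD, a small GTPase, 6.11, 7.79 and 22.6 RPM against 2.83 to 7.92, above the controls at 2.5 µM alone in the case of RRAD. S100A2, with 235 RPM in the matched control, reached 295, 462 and 1216 RPM and was called within the sets as well (slope 0.77, adjusted p = 0.000294).

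In the other direction, G6PC, which releases glucose from the hepatocyte, had 18.2 RPM in the matched control, 5.69, 17.1 and 8.10 RPM in the others, and 5.77 and 3.83 RPM at 0.25 and 1 µM. No read of it was counted at 2.5 µM against 254 in the matched control, the highest of the 4 DMSO controls for G6PC. Against that control, G6PC was 64.8-fold lower at the floor of 3 counts and at least 52.3-fold lower by the exact 95% counting interval. ARG1, the arginase of the urea cycle, had 17.4 RPM in the matched control, 5.69, 12.8 and 5.07 RPM in the others, and 9.88, 3.02 and 0.187 RPM, the last resting on 2 reads. FABP1, the liver fatty acid binding protein, had 167 RPM in the matched control, 117, 249 and 132 RPM in the others, and 122, 60.8 and 10.9 RPM. For ARG1 and FABP1 the 0.25 µM level was within the range of the controls, and those at 1 and 2.5 µM below it.

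The AFB1 slope was set against the mean slope of the 4 other DDI chemicals (2NF, CISP, ETP and methyl methanesulfonate, MMS) in 1 edgeR fit of all 39 libraries, with the matched set as a block. MMS was given in water and had a water control, while 2NF, CISP and ETP were given in DMSO like AFB1. No gene passed (0.00% of 12870), and 556 genes (4.32%) had an unadjusted p under 0.05. The AFB1 slope was above the mean of the others in 232 of these and below it in 324, whichever way each slope ran. The smallest adjusted p was 0.0879, for LYPD1. A difference was thus not detected, which does not show that the chemicals acted alike, and the dose levels are not matched in potency. For CYP3A4 the difference was -1.07 per level (95% interval -1.61 to -0.54, adjusted p = 0.312), with slopes of -1.61 for AFB1, -1.19 for 2NF, -0.65 for MMS, -0.20 for CISP and -0.09 for ETP. For TOP2A it was 0.13 (-0.18 to 0.45), for MDM2 0.09 (-0.26 to 0.44) and for CDKN1A -0.03 (-0.18 to 0.13). Of the 6 AFB1 activation genes tested, 5 had an unadjusted p under 0.05, as did 8 of the 27 other enzymes.

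Bulky adducts can stop RNA polymerase, and long genes offer more sites, so genes were also grouped by the length of their genomic span (GENCODE v29 on GRCh38, 12252 of the 12870 genes). In 4 groups of equal size, from shortest to longest, the median log2 ratio at 2.5 µM was 0.11, 0.13, 0.12 and -0.01. The longest group minus the shortest gave -0.03, -0.02 and -0.11 at the rising concentrations, and between -0.08 and 0.05 in the other DMSO controls. Of the longest group 3.30% of genes were called higher and 6.73% lower, and of the shortest 6.40% and 3.56%. Genes are not replicates, so these are descriptions with no test.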

How the data were processed

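Libraries were made and sequenced by the study on an Ion Torrent instrument. According to its methods, reads were aligned to hg19 with TMAP in Torrent Suite v5.04 and counted per amplicon with the ampliSeqRNA plugin. The authors deposited counts and RPM, which are counts scaled to a library's total. RPM recomputed from the deposited counts differed by at most 0.000538. ERCC rows were left out. Levels and log2 ratios used the deposited RPM with a pseudocount of 1, and tests used the deposited counts.

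Slopes were fitted with edgeR 4.0.16 (quasi-likelihood, TMM) in R 4.3.3, with limma 3.58.1 and DESeq2 1.42.0 as alternatives. Counting intervals are exact 95% intervals and cover counting error only, as reads carry no molecular identifiers. Scripts were tested on simulated data. Genes named were members of 20 lists and, in each direction, the 12 called genes with the largest ratio at 2.5 µM and a mean count of at least 50. The members and lists were chosen with earlier results of these data known. P-values measure the spread between these libraries only. Gene spans on GRCh38 gave lengths, not positions. Values of a few listed genes are not reported here.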

Additional observations from a re-analysis of the deposited data

Results flagged for a closer look

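Among 47 quantities compared over the 4 DMSO controls, 2 had 1 control whose gap to its neighbour took more of the range than Dixon's 95% critical value allows, which chance exceeds in about 1 in 20. MDM2 had a gap of 0.831 of the range, with log2(RPM + 1) levels of 8.64, 8.75 and 8.61 in the CISP, 2NF and matched controls and 7.92 in the ETP control. The mean level of the AFB1 activation genes also had a gap of 0.831, with 5.62, 5.62 and 5.68 in the CISP, matched and ETP controls and 5.96 in the 2NF control. Neither of the outlying libraries was the matched control.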

How the results depend on the processing

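The trend counts of 721 higher and 574 lower stayed within 1.5 times under DESeq2, limma, other size factors, other filters, concentration in µM and the matched control alone, where they ran from 600 to 854 higher and from 519 to 755 lower. These are totals, and the genes called were not all the same. Against the matched control alone 481 of the 721 and 383 of the 574 were called again (66.7%), the lowest share among these settings. The fit within matched sets called 336 higher. Leaving out 1 library gave 31 to 869 higher and 21 to 636 lower, both lowest without the 2.5 µM library. Of 134 genes followed singly, 117 lost the call without that library and 39 within the matched sets, and the cause was not tested. Counts past 2-fold depended on the pseudocount. With 0.1 they were 71 higher and 108 lower at 0.25 µM and 167 and 131 at 1 µM. With 5 they were 0 and 0, 17 and 29, and 214 and 194 at 2.5 µM, since a larger pseudocount shrinks ratios of low genes. Against the mean of the 4 DMSO controls 27 genes were higher at 0.25 µM, and with a mean count of at least 50, 3 were lower. For the difference from the other DDI chemicals, leaving out 1 AFB1 library gave 0 to 2 genes (2 without 1 µM), leaving out 2NF gave 4 and leaving out CISP gave 3. List medians at 2.5 µM moved by more than 1 SD between controls in 12 of 21 lists (all genes tested counted as 1) against the mean of the 4 DMSO controls, in 10 with a pseudocount of 5, and in 3 each with 0.1 and with TMM scaling. Against that mean the medians of cholangiocyte markers (-0.52 to 0.14), immediate-early genes (-0.17 to 0.38) and other liver cells (0.29 to -0.01) changed sign, and with a pseudocount of 5 that of the AFB1 activation genes was -2.10. No paired analysis was possible because no replicate numbers pair the libraries, and the matched set served as the block instead, in the fit with 336 higher. With 1 library per concentration, the spread between cultures at a concentration was not measured.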

Other observations

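Several listed genes had a mean count under 10 and were not tested. NR1I2, the receptor PXR that drives CYP3A4, had 13 counts in the matched control, 5, 7 and 8 in the CISP, 2NF and ETP controls, and 9, 6 and 0 with AFB1. AURKA, a mitotic kinase, had 0 counts in the matched and ETP controls, 9 and 6 in the CISP and 2NF controls, and 4, 16 and 17 with AFB1. CYP3A43, a minor CYP3A form, had 15 counts in the matched control, 9, 4 and 7 in the CISP, 2NF and ETP controls, and 4, 2 and 2 with AFB1. GSTP1, the pi-class transferase, had at most 1 count in any library.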
